A study of Mus musculus with 4 samples.

Results

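The comparison described here is that of liver from LASS2-/- and wild type male mice on a high-fat diet. It rests on the array labelled LASS2-/- HFD and the array labelled WT HFD, 2 of the 4 arrays of the study. The other arrays hold LASS2-/- and WT liver on chow, and every group has 1 array. Per the labels, chow supplied 10% and the high-fat diet 60% of calories from fat, from 3 weeks of age, and all 4 arrays hold liver RNA. The labels do not give the strain, how LASS2 was deleted, or whether an array held 1 mouse or a pool. With 1 array per group no value has an error between animals and no test was possible, so the sizes below describe these arrays. Genes were taken from all probe sets: of 18193 named genes, 12493 had a probe set at or above the median signal of at least 1 array, and the brightest such probe set stands for the gene. The ratio throughout is the log2 signal on the array labelled LASS2-/- HFD minus that on the array labelled WT HFD, with values under an array's median set to that median, the floor, 6.19 log2 on both. Of the 12493 genes, 10664 were above the floor on both arrays. A further 605 were above it only on the array labelled LASS2-/-, 545 only on that labelled WT, and 679 on neither. Where the lower array was under the floor, the fold is a bound and is written "at least".

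LASS2 is the former name of Cers2, a ceramide synthase. Ceramide synthases join a sphingoid base to a fatty acid, and Cers2, the main one in liver, uses very long acyl chains. Ceramides are the backbone of sphingomyelin and glycosphingolipids, and liver without Cers2 is known to make ceramides of shorter chains. Hepatocytes handle dietary fat, bile acids and foreign compounds through enzymes and transporters, while Kupffer cells and incoming monocytes respond to microbial products and to dying cells.

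Cers2 itself read 12.32 on the log2 scale on the array labelled LASS2-/- HFD and 12.25 on that labelled WT HFD, a log2 ratio of 0.07. On chow it had 12.32 on the array labelled LASS2-/- and 12.46 on that labelled WT. The transcript was therefore not lower on the high-fat array labelled LASS2-/-, and the genotype labels were not checked by it. It has 1 probe set, and whether that probe set lies in a deleted part is not known here. Every direction below therefore refers to the label of the array.

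In all, 184 genes were at least 2-fold higher on the array labelled LASS2-/- HFD, which is 1.47% of the 12493 genes. Another 61, or 0.488%, were at least 2-fold lower. For lists of the sizes used below, 0 members past 2-fold is near these shares. Of the higher genes 44 are bounds, as are 20 of the lower genes. At least 4-fold differences numbered 18 higher and 2 lower. The median log2 ratio of all genes was 0.00, and 51.6% of the genes above the floor on both arrays had a ratio above 0. The excess of higher over lower genes thus lay in the tail of the distribution and not in its middle. It was not seen with floor and filter both set at the 25th percentile, where 790 genes were higher and 786 lower. At the threshold, Basp1 (8.93 against 7.93 log2) lay just inside and Ptger4 (7.46 against 6.46) just outside on the higher side. On the lower side Cdc42ep2 (6.70 against 7.70) lay just inside and Kcnk5 (9.38 against 10.38) just outside. On chow the 2-fold counts were 145 higher and 53 lower on the array labelled LASS2-/-. Of the 184 genes higher on high-fat diet, 14 were also 2-fold higher on chow and 130 were within 1.5-fold there. Of the 61 lower genes, 2 were also 2-fold lower on chow and 46 were within 1.5-fold. The counts within 1.5-fold include genes under the floor on both chow arrays, which have no measured ratio there.

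**Figure D1:**
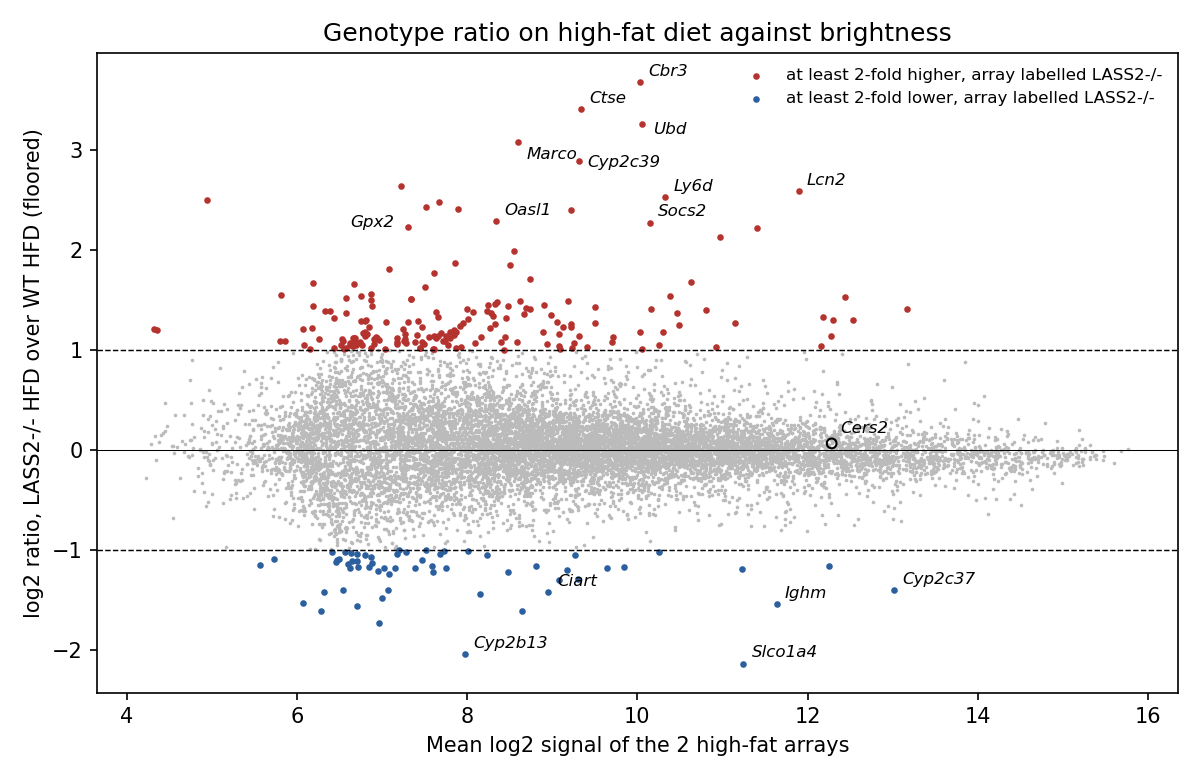
Each point is 1 gene, with the mean log2 signal of both high-fat arrays on the horizontal axis and the log2 ratio of the array labelled LASS2-/- HFD over the array labelled WT HFD on the vertical axis. Red and blue points are the 184 higher and 61 lower genes past 2-fold (dashed lines), and Cers2, circled, lies at 0.07.

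Dim genes scattered more than bright ones. The SD of the log2 ratio over genes was 0.45 at a mean signal from 7 to 8 and 0.13 at 14 or above. The median ratio moved from 0.06 to -0.07 between the same classes. A second probe set of the same gene was available for 62 of the higher genes, and it lay in the same direction for 49 and at least 2-fold away for 24. For the lower genes these numbers were 13 and 3 of 22. For many genes of both kinds, the brightest probe set alone thus carries the 2-fold difference, and 161 of the 245 genes had no second probe set to compare.

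**Figure D2:**
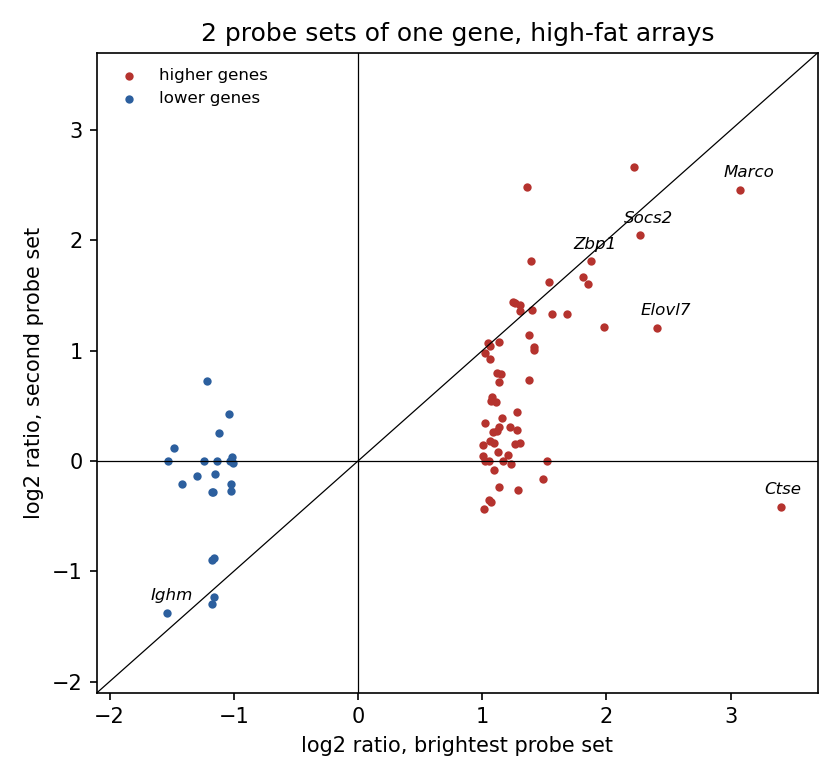
Each point is a gene at least 2-fold apart that has a second kept probe set, with the log2 ratio of its brightest probe set (horizontal) against that of its second brightest (vertical); the diagonal marks equal ratios. Marco (3.08 and 2.46) and Socs2 (2.27 and 2.05) lie near the diagonal, whereas Ctse (3.41 and -0.41) does not.

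The genes furthest apart on the higher side included genes of oxidant defence, inflammation and drug handling. Cbr3, a carbonyl reductase, read 11.86 log2 on the array labelled LASS2-/- HFD and 8.19 on the array labelled WT HFD, 12.8-fold apart, and it was 1.70-fold higher on chow. Ubd (FAT10), which tags proteins for the proteasome in inflamed tissue, had 11.69 against 8.43, 9.59-fold, and it was at least 2.34-fold higher on chow. Marco, a scavenger receptor of macrophages that binds bacteria, had 10.14 against 7.06, 8.44-fold, and it was 3.67-fold higher on chow. Ubd and Marco were thus apart on both diets, whereas most of the leading 15 genes were under 2-fold apart on chow. Cyp2c39, a cytochrome P450, had 10.75 against 7.86, 7.41-fold, and on chow it had 10.11 on the array labelled LASS2-/- and 10.39 on that labelled WT. Its low value was thus that of the array labelled WT HFD, well under both chow arrays. Lcn2, a secreted protein that binds bacterial iron carriers, had 13.19 against 10.60, 6.02-fold, with 8.10 and 7.90 on chow. Ly6d, a membrane-anchored surface protein, had 11.59 against 9.06, 5.77-fold, with 6.68 and 6.31 on chow. For Lcn2 and Ly6d both high-fat arrays were above both chow arrays, and the array labelled LASS2-/- HFD was the highest of the 4.

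Ctse, the endosomal protease cathepsin E, had 11.04 against 7.64 log2 on its brightest probe set, 10.6-fold, but its other probe set had a log2 ratio of -0.41. Elovl7, a fatty acid elongase, had 9.10 against 6.69, 5.31-fold, and its 5 probe sets lay between 0.59 and 2.41 log2. Sult1e1, the estrogen sulfotransferase, had 8.91 against 6.43, 5.57-fold, and Lce1h, an epidermal envelope gene, had 8.74 against 6.30, 5.39-fold. Both were also higher on chow, by at least 3.23-fold for Sult1e1 and at least 2.14-fold for Lce1h. Serpina4-ps1, annotated as a pseudogene of a serine protease inhibitor, had 12.51 against 10.29, 4.66-fold, with all 3 probe sets between 2.22 and 2.66 log2. On chow it had 14.55 and 14.30, so both high-fat arrays were under the chow arrays and the array labelled WT HFD was lowest. Nnmt, which methylates nicotinamide, had 12.03 against 9.90, 4.37-fold, with 12.55 and 11.79 on chow, and was named after its value was seen. Among genes under the floor on the array labelled WT HFD, the bound was 6.21-fold for Gipc2, 5.65-fold for Tekt5 and 3.51-fold for Ms4a4c. Tekt5 was also under the floor on both chow arrays, so it entered through the array labelled LASS2-/- HFD alone. Tff3, a trefoil peptide of mucosal epithelia, was at least 3.18-fold higher, and it was 3.25-fold higher on chow. The remaining bounds of the leading 8, Stk10, Dusp8, Tinag and Ccn5, were higher by bounds of 2.90-fold to 3.16-fold, and 1 of the 3 probe sets of Dusp8 gave a ratio of 0.00.

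On the lower side the organic anion transporter Slco1a4, which takes up bile acids and drugs, was furthest apart. It had 10.18 log2 on the array labelled LASS2-/- HFD and 12.31 on the array labelled WT HFD, 4.39-fold lower, and it was 1.83-fold lower on chow. Cyp2b13, a female-biased cytochrome P450, had 6.95 against 8.998, 4.13-fold lower, and was under the floor on both chow arrays. These were the only 2 genes at least 4-fold lower. Ciart, a repressor of the circadian clock, had 8.24 against 9.67, 2.68-fold lower, with 8.11 and 7.32 on chow. Cyp2c37, a bright cytochrome P450, had 12.31 against 13.72, 2.65-fold lower, and was 1.80-fold lower on chow. Pcp4l1 and Sorl1, a sorting receptor, had log2 ratios of -1.44 and -1.23, and Shf and Arrdc2, adaptor proteins, -1.21 and -1.20. Hic2, Scyl2, Acot6 and Vars2 lay between -1.48 and -1.22 on their brightest probe sets, yet each has another probe set at or above 0. Among bounds, Tex12 was at least 3.31-fold lower and at least 2.06-fold lower on chow. Rcor2, Arhgef40, Cep41, Prdm11, Slc2a4, Rai2 and Cnnm4 were lower by bounds of 2.22-fold to 3.06-fold. All 8 had log2 signals from 7.35 to 7.92 on the array labelled WT HFD, not far above the floor, and 2 of the 3 probe sets of Arhgef40 did not share its direction. Prdm11 and Cnnm4 were also under the floor on both chow arrays, so they entered through the array labelled WT HFD alone.

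**Figure D3:**
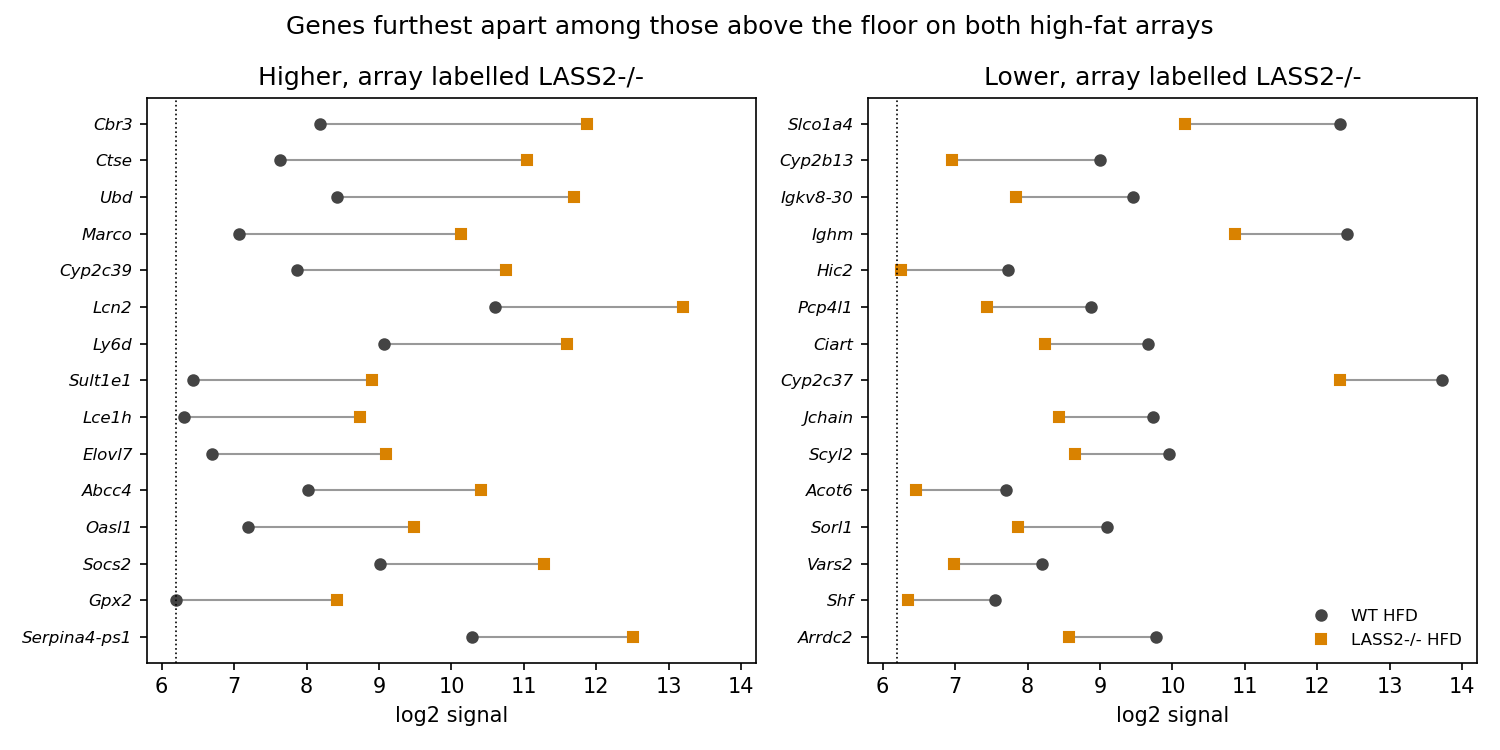
Log2 signal on the array labelled WT HFD (grey circles) and on the array labelled LASS2-/- HFD (orange squares) for the 15 genes per direction with the largest ratio among those above the floor (dotted line, 6.19) on both. Cbr3 spans 8.19 to 11.86, and Slco1a4 spans 12.31 to 10.18 in the other direction.

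Genes induced by interferons, the cytokines of antiviral defence, stood mostly higher on the array labelled LASS2-/-. Of 38 measured members, 12 passed 2-fold on the higher side and 0 on the lower, where 1.47% and 0.488% of all genes did. In 36 members the ratio was above 0, and the median was 0.79 log2 against 0.00 over all genes. On chow the same list had a median of 0.23 with 0 members 2-fold apart. Interferon-stimulated genes are switched on by transcription factors that bind a repeat of GAAA and similar letters near the gene start. The sequences printed next are stretches of RefSeq promoters on assembly GRCm38.p6, shown because the members stood higher together, with each GAAANNGAA match on either strand in capitals. Overlapping matches run together.
Ifit1, chr19:34640750-34640843, plus strand: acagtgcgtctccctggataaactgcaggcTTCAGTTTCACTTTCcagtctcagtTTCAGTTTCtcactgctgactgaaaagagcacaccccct
Rsad2, chr12:26456533-26456601, minus strand: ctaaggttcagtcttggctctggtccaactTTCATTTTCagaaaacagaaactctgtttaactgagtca
Oas1a, chr5:120907526-120907575, minus strand: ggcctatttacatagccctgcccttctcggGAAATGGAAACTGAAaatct
Ifit3, chr19:34583344-34583465, plus strand: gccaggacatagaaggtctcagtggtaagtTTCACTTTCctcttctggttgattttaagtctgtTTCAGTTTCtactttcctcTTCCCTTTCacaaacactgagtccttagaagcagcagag
The 250 bases before the gene start held the match in 15 of 27 members with a promoter in the table, 55.6%, and in 7.46% of the 10092 entered genes with one. Ifit1, Rsad2 and Oas1a were the 3 holders among 9 members with a promoter that were at least 2-fold higher, and Ifit3 is shown because its promoter holds 3 matches at a log2 ratio of -0.02. A match is a description of the letters, and members with and without it are found among the higher genes.

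Oasl1, an inhibitor of the translation of Irf7, had 9.48 log2 on the array labelled LASS2-/- HFD and 7.19 on the array labelled WT HFD, 4.89-fold. Zbp1, a sensor of Z-form nucleic acids, had 8.79 against 6.92, 3.66-fold, and its 2 probe sets gave 1.81 and 1.87 log2. Rsad2, the antiviral protein viperin, had 11.15 against 9.61, 2.90-fold, with 3 probe sets between 1.52 and 1.62 log2. The separate probe sets of Zbp1 and Rsad2 thus gave nearly the same size. Oas1a, an oligoadenylate synthetase that senses double-stranded RNA, had 10.21 against 8.78, and Irf7, the transcription factor that amplifies the interferon response, had 9.74 against 8.51. Ifit1 and Ifit2, which bind viral RNA, had ratios of 1.18 and 1.39 log2, and Cmpk2, a mitochondrial nucleotide kinase next to Rsad2, had 1.41. Ifi27, Ifi27l2a, Ifi47 and Xaf1 lay between 1.08 and 1.30. Usp18, Oas2, Gbp3, Rtp4, Stat2 and Oasl2 came close to the threshold, from 0.93 to 0.98. At the other end, Ifit3, Irf1 and Gbp2 stood at -0.02, 0.01 and 0.03 log2, and Iigp1, an immunity-related GTPase, at 0.22. Oasl1, Ifit2 and Cmpk2 had ratios of -0.54, -0.39 and -0.68 on chow, opposite in direction to high-fat diet.

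The proteins that display antigen stood only slightly higher. Of 20 measured members of antigen presentation and the immunoproteasome, 18 had a ratio above 0 and the median was 0.32 log2, but only Ubd was 2-fold apart. Psmb8, Psmb9 and Psmb10, the inducible proteasome subunits, had 0.70, 0.39 and 0.49 log2, and Tap1, the peptide transporter, had 0.56. B2m and H2-K1, parts of the class I complex, had 0.05 and 0.15. On chow the list had a median of 0.27, near that on high-fat diet.

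**Figure D4:**
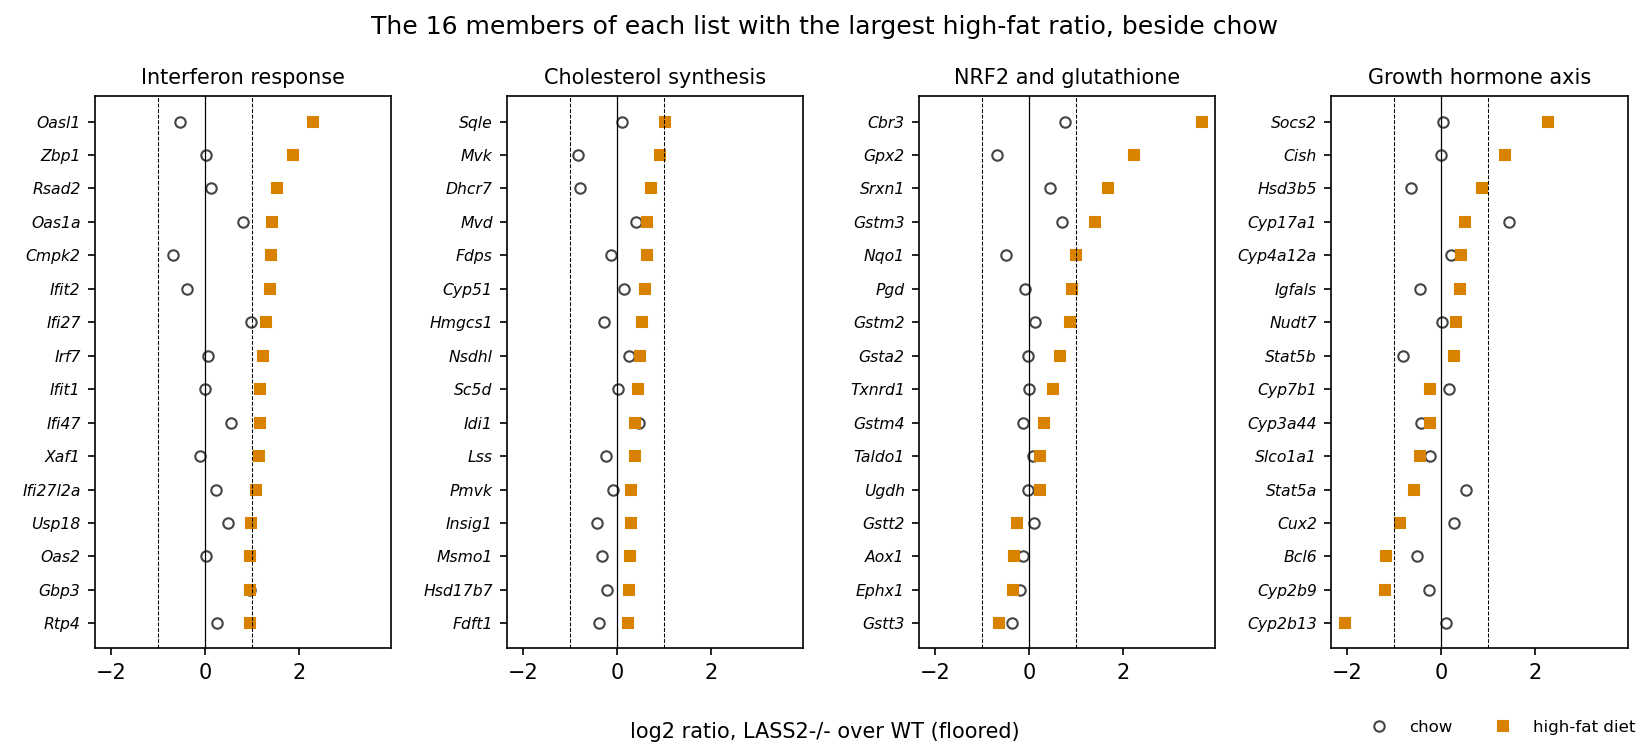
Log2 ratio of the array labelled LASS2-/- over that labelled WT on high-fat diet (orange squares) and on chow (open circles) for the 16 members of 4 lists with the largest high-fat ratio in either direction; dashed lines mark 2-fold. Oasl1 of the interferon list (2.29 and -0.54) and Mvk of the cholesterol list (0.92 and -0.83) lie on opposite sides of 0 on the 2 diets, and Socs2 (2.27 and 0.03) is level on chow.

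Markers of monocytes and macrophages stood higher as a group. Of 20 measured, 19 had a ratio above 0, 5 were at least 2-fold higher (1.47% of all genes), and the median was 0.70 log2, with 0.31 on chow. Their summed linear signal was 42494 on the array labelled LASS2-/- HFD and 27013 on the array labelled WT HFD, 1.57-fold. In whole tissue, more cells of a type and more RNA per cell cannot be told apart. Cd14, the co-receptor for bacterial lipopolysaccharide, had 9.44 against 8.03 log2, 2.65-fold, and Ccr2, the chemokine receptor of incoming monocytes, had 8.32 against 7.18, 2.20-fold. Ccr2 was also 2.08-fold higher on chow, 1 of its 3 probe sets lay in the other direction (-0.23 log2), and their mean was 0.66. Mpeg1 and Aif1, proteins of phagocytes, had 12.67 against 11.63 and 9.60 against 8.56, each 2.06-fold. Msr1, a scavenger receptor, had 9.92 against 8.90, and the lowest of its 4 probe sets gave a ratio of 0.00. Adgre1 (F4/80) had 0.76 and Cd68 0.65 log2, whereas the mannose receptor Mrc1 had -0.09.

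Markers of the resident Kupffer cells had ratios above 0 in 7 of 8, mostly small. Marco was 8.44-fold higher, and the haemoglobin scavenger receptor Cd163 was 2.08-fold lower, with 8.74 against 9.79 log2. Clec4f and Vsig4, which define these cells, had ratios of 0.11 and 0.25 log2, Cd5l had 0.51 and Timd4 had 0.40. The median was 0.20 on high-fat diet and 0.19 on chow. Genes of lipid-associated macrophages, a state described in fatty tissue, had a median of 0.37 over 17 members: Lpl and Mmp12, a macrophage elastase, were 2.37-fold and 2.39-fold higher, and Gpnmb and Lgals3 had 0.80 and 0.90 log2. Trem2 did not enter. Further phagocyte genes among those 2-fold higher, named after their values were seen, were Cybb, the oxidase subunit (1.37 log2, 3 of 3 probe sets), C3ar1 (1.06), Ms4a7 (1.45), Clec4a2 (1.30), Clec4a3 (1.07), Pld4 (1.08), Rac2 (1.08) and Plcg2 (1.27).

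Chemokines that attract monocytes and lymphocytes were among the higher genes. Of 22 measured chemokines and cytokines, 4 passed 2-fold on the higher side and 0 on the lower, against 1.47% and 0.488% of all genes. The median was 0.50 log2, with 0.10 on chow. That chow value is the difference between the 2 chow floors, 6.28 and 6.17 log2. A gene under both floors receives it, so it is not a measured ratio. Cxcl13, which attracts B cells, had 9.43 against 7.58 log2, 3.61-fold, with 2 probe sets at 1.60 and 1.85. Cxcl10, an interferon-induced attractant of T cells, had 9.09 against 7.62, 2.78-fold. Ccl5, for T cells and monocytes, had 9.21 against 7.76, 2.72-fold, and was 2.64-fold higher on chow. Ccl2, the main monocyte attractant, had 7.58 on the array labelled LASS2-/- HFD and was under the floor on the other, at least 2.61-fold. It was also under the floor on both chow arrays, so it entered through the array labelled LASS2-/- HFD alone. On chow Cxcl13 and Cxcl10 had 0.01 and 0.64 log2, and Cxcl13 was there nearly level between the arrays. Il1b had 0.86 log2 and Cxcl9 0.85, whereas Tnf and Il6 did not enter.

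Receptors of microbial products and their feedback genes had a median of 0.59 log2 over 23 members, with 4 at least 2-fold higher (1.47% of all genes). Casp4, which mouse cells use to sense lipopolysaccharide in the cytosol, had 8.50 against 6.73, 3.41-fold. Casp12, its neighbour in the caspase family, had 9.54 against 7.56, 3.96-fold, with 2 probe sets at 1.22 and 1.98 log2, and Casp1 had 0.87. The toll-like receptors Tlr2, Tlr13 and Tlr4 had 1.17, 1.21 and 0.89 log2. Of their co-factors and inhibitor, Ly96 (0.08), Myd88 (0.14), Lbp (-0.03) and Nfkbia (-0.15) stood nearly level. The co-receptor Cd14, in the same list, had 1.41. Of genes of programmed death named after their values were seen, Mlkl, the effector of necroptosis, had 1.46 and Pycard, the inflammasome adaptor, 1.09. Over 28 measured p53 targets and cell death genes the median was 0.12, and the p53 targets Cdkn1a and Mdm2 had 0.07 and -0.04.

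Acute-phase proteins, which hepatocytes secrete in inflammation, split into a few far-apart genes and a level majority. Of 25 measured, 5 were at least 2-fold higher (1.47% of all genes) and the median was 0.11 log2. Besides Lcn2, Saa2 had 13.20 against 11.67, 2.89-fold, Saa3 had 10.87 against 9.46, 2.65-fold, and Orm2 had 11.79 against 10.52, 2.41-fold. Saa1 had 14.29 against 13.41, 1.84-fold. Probe sets of the near-identical Saa1 and Saa2 may read both genes, which was not tested. Il1rn, the interleukin-1 receptor antagonist, had 1.16 log2, but its 3 probe sets ranged from -0.51 to 1.16 and their mean was 0.35. The fibrinogen chains Fga, Fgb and Fgg each had -0.02, haptoglobin (Hp) had -0.03 and Crp had 0.03. Socs3, a feedback inhibitor of the same pathway, had 0.75, with 2 of 3 probe sets higher, while the receptors Il6ra and Il1r1 had -0.65 and -0.91. Complement and coagulation genes, 30 in all, had a median of -0.01 with 0 at least 2-fold apart, C6 being highest at 0.57. The promoter search was also run for the acute-phase list, with the motif TTCNNNGAA. It was held by 5 of 21 members with a promoter, 23.8%, against 7.33% of entered genes, and by 0 of the 5 that were at least 2-fold higher.

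**Figure D5:**
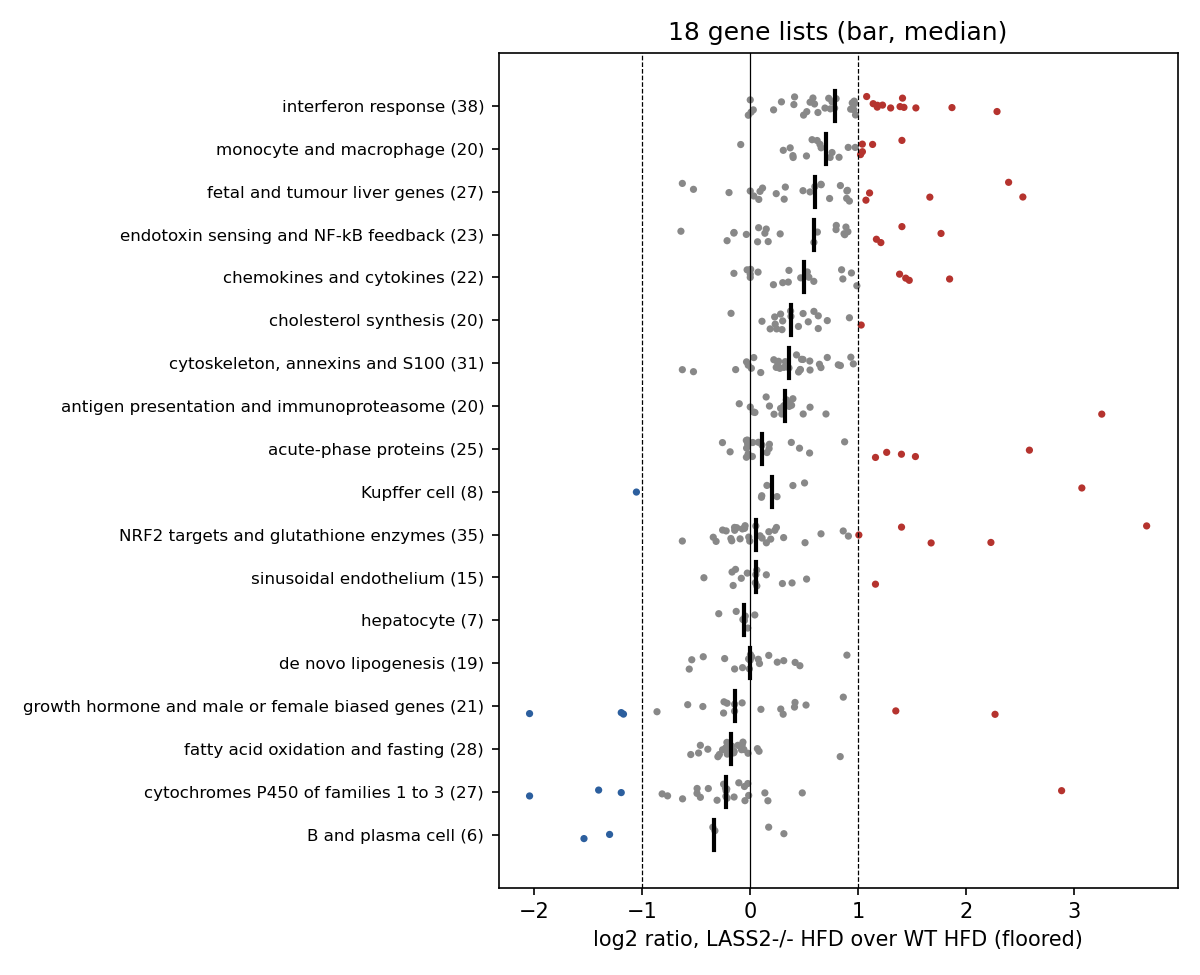
Log2 ratio of the array labelled LASS2-/- HFD over the array labelled WT HFD for every measured member of 18 lists, with the number measured in brackets and a black bar at the median; red and blue points lie past 2-fold (dashed lines). The interferon list has the highest median (0.79) and the B and plasma cell list the lowest (-0.34) among those drawn.

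Of 35 measured targets of NRF2, the transcription factor of oxidant defence, and glutathione enzymes, 5 passed 2-fold on the higher side and 0 on the lower, against 1.47% and 0.488% of all genes, yet the median was 0.05 log2. Besides Cbr3, Gpx2, a glutathione peroxidase of epithelia, had 8.43 against 6.19, 4.70-fold. Its value on the array labelled WT HFD equals the floor, so that fold is close to a bound, and on chow the array labelled LASS2-/- was under the floor. Srxn1, which repairs oxidised peroxiredoxins, had 11.47 against 9.79, 3.20-fold, with 4 probe sets between 1.20 and 1.92 log2. Gstm3, a glutathione transferase, had 13.86 against 12.46, 2.65-fold, and Nqo1, a quinone reductase, had 9.59 against 8.58, 2.01-fold. Pgd and Gstm2 had 0.91 and 0.86, whereas other well-known targets stood nearer 0: Txnrd1 at 0.51, Gclm at 0.05, Gclc at -0.09 and Hmox1 at 0.09. Nfe2l2, which encodes NRF2, had 0.17. Most bright glutathione transferases lay slightly below 0, and Gstt3 was lowest at -0.63. On chow the median was -0.01 and 0 members were 2-fold apart. The promoter search was also run here, with the motif TGACNNNGC. It was held by 7 of 31 members with a promoter, 22.6%, against 13.9% of entered genes, and by 0 of the 5 that were at least 2-fold higher.

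Genes of the growth hormone axis stood apart in both directions. In rodents growth hormone acts through STAT5 in a sex-specific rhythm, so that some liver genes are male-biased and others female-biased. Socs2, a feedback inhibitor and direct target, had 11.28 against 9.01 log2, 4.83-fold, its second probe set gave 2.05 log2, and the mean of its 5 probe sets 0.94. On chow it had 12.93 and 12.90, so both high-fat arrays were under the chow arrays and the array labelled WT HFD was lowest. Cish, a related feedback inhibitor, followed the same order, with 9.67 against 8.31 on high-fat diet, 2.55-fold, and 10.83 and 10.82 on chow. Bcl6, a repressor that antagonises STAT5, had 9.25 against 10.42, 2.26-fold lower, with both probe sets lower. The female-biased Cyp2b13 and Cyp2b9 were 4.13-fold and 2.29-fold lower, and Cux2, a female-biased transcription factor, had -0.86 log2. The male-biased Hsd3b5 had 0.86, Cyp4a12a 0.42, Cyp7b1 -0.24 and Mup3 -0.14, so the male-biased genes did not share a direction. Ghr and Igf1 stood at -0.07 and 0.10. Over the 21 measured members, 2 passed 2-fold on the higher side and 3 on the lower, against 1.47% and 0.488% of all genes. The median was -0.14 log2.

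Cytochromes P450 of families 1 to 3, which oxidise drugs, steroids and retinoids, stood slightly lower. The list includes their regulators, and of 27 measured members 23 had a ratio below 0. At least 2-fold lower were 3 members and at least 2-fold higher 1, where 0.488% and 1.47% of all genes were. The median was -0.22 log2, with -0.19 on chow. Its median signal was 12.48 log2 on the array labelled WT HFD, and genes with a mean signal from 12 to 13 had a median ratio of -0.04. Within the mouse 2C family Cyp2c39 was 7.41-fold higher and Cyp2c37 2.65-fold lower. Cyp2c54, Cyp2c50 and Cyp2c29 had -0.76, -0.49 and -0.49, and Cyp2c38 and Cyp2c70 had 0.17 and 0.48. These genes are close in sequence, and whether their probe sets separate them was not tested. The abundant Cyp3a11, Cyp2e1 and Cyp2f2 stood at -0.02, -0.05 and -0.01. The receptors Nr1i3 (CAR) and Nr1i2 (PXR), which control many of these genes, had -0.63 and -0.46, and Cyp2b10, a CAR target, had -0.22. Sulfotransferases, glucuronosyltransferases and carboxylesterases had a median of -0.02 over 24 members, with Sult1e1 the only member 2-fold apart, Ces1g at 0.70 and Ces2a at -0.67.

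Among bile acid genes the transporters at the blood side differed most. Abcc4, an exporter of bile acids and conjugates into blood, had 10.41 against 8.02, 5.27-fold higher, with 7.51 and 7.57 on chow. Slco1a4, which takes up organic anions from blood, was 4.39-fold lower. The main uptake transporter Slc10a1 had -0.31 and the canalicular bile salt pump Abcb11 -0.08. Nr0b2 (SHP), a repressor of bile acid synthesis, had 9.17 against 10.16, 1.99-fold lower, whereas it was 1.44-fold higher on chow. Cyp7a1, the rate-limiting enzyme of bile acid synthesis, had 12.99 against 12.49, 1.41-fold higher with both probe sets higher. Cyp8b1, Cyp27a1 and Nr1h4 (FXR) stood at 0.14, -0.09 and -0.20. Of 27 measured, 23 had a ratio below 0, with a median of -0.13 on high-fat diet and -0.15 on chow. The median signal of these genes was 12.53 log2 on the array labelled WT HFD, and genes with a mean signal from 12 to 13 had a median ratio of -0.04.

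Enzymes of cholesterol synthesis stood higher together at small sizes. Of 20 measured, 19 had a ratio above 0, the median was 0.38 log2, and only Sqle, squalene epoxidase, passed 2-fold, with 11.44 against 10.41. Mvk, mevalonate kinase, had 8.75 against 7.83, 1.89-fold, with both probe sets higher. Dhcr7, the last reductase of the pathway, had 11.51 against 10.79, 1.64-fold, and Fdps and Hmgcs1 had 0.63 and 0.54 log2. On chow the median was -0.05, and Mvk and Dhcr7 stood at -0.83 and -0.78 there. Stard4 was the member below 0, at -0.18, and Srebf2, the transcription factor of the pathway, had 0.19.

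Fatty acid synthesis did not share this pattern. Over 19 genes of de novo lipogenesis the median was 0.00 with 0 at least 2-fold apart: Fasn had 13.26 on both arrays, Srebf1 had -0.56 log2, Acaca -0.54, Acss2 0.46 and Scd2 0.90. On chow Srebf1 was 3.38-fold lower on the array labelled LASS2-/-. Of 28 genes of fatty acid oxidation and fasting, 25 had a ratio below 0, yet the median was only -0.18 log2 and 0 passed 2-fold. Acot1, Cyp4a14 and Ppargc1a had -0.55, -0.48 and -0.46, Ppara had -0.21, and Cpt1a, which admits fatty acids to mitochondria, had 0.08. Pdk4, which spares glucose in fasting, was the exception at 0.84, and was 3.15-fold higher on chow. The respiratory chain stood as narrowly lower, with 31 of 33 members below 0 and a median of -0.11. Bright genes as a class sat slightly below 0 on these arrays, as given above, and with the brightness trend removed this median was -0.06. The fatty acid oxidation median was -0.15 with the trend removed.

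Genes that take up, store and hydrolyse fat showed single differences and no common direction. Lpl, lipoprotein lipase, had 11.12 against 9.87, 2.37-fold higher, with both probe sets higher, and was 2.18-fold higher on chow. Vldlr, the very-low-density lipoprotein receptor, had 8.23 against 9.39, 2.23-fold lower, with 5 of 5 probe sets lower. Pnpla3 and Cidea, proteins of the lipid droplet, had 0.86 and 0.70 log2, Cidec had 0.29 and Pparg 0.29. Mogat2, a monoacylglycerol acyltransferase, was at least 2.31-fold higher, with a signal under the floor on the other 3 arrays. The lipid droplet and triglyceride lists had medians of 0.00 over 26 and -0.11 over 12 members. Apolipoproteins and secretion genes had -0.10 over 17, with Apoa4 lowest at -0.56 and Apob and Mttp at -0.13 and -0.10. Their median signal was 14.79 log2 on the array labelled WT HFD, and genes with a mean signal of 14 or above had a median ratio of -0.07.

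The sphingolipid enzymes, the family of the targeted gene, had 0 of 28 measured members at least 2-fold apart and a median of 0.02 log2. Over all genes 1.47% were higher and 0.488% lower, so a count of 0 is near those shares. Cers4, another ceramide synthase, had 6.27 against 7.05, 1.71-fold lower with both probe sets lower, and it was close to the floor. Cers5 and Cers6, which make ceramides of shorter chains, had 8.50 against 8.04 and 10.01 against 10.32. They thus lay on opposite sides of 0. Cerk, ceramide kinase, had 7.44 against 6.67, 1.70-fold higher. Sptlc2 and Sptlc1, subunits of the serine palmitoyltransferase that begins the pathway, had 0.40 and 0.25, and Degs1, which makes ceramide from dihydroceramide, had 0.01. The vacuolar proton pump acidifies lysosomes, and its Atp6v0c subunit, which did not enter, is known to bind the LASS2 protein. Its 15 measured genes had a median of 0.07 and 0 at least 2-fold apart, again near the shares over all genes.

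Genes of the fetal or tumour liver stood higher, with 5 of 27 past 2-fold on the higher side and 0 on the lower, where all genes had 1.47% and 0.488%. The median was 0.60 log2, with 0.23 on chow. The 5 were Ly6d, Abcc4, Tff3, Prom1, a progenitor surface protein (7.82 against 6.72), and Tspan8, a tetraspanin (7.93 against 6.85). Tff3 had 10.08 and 8.38 on chow, so both high-fat arrays were under both chow arrays for it. Afp, alpha-fetoprotein, had 0.66, Igf2 was under the floor on both high-fat arrays, and H19 and Dlk1 did not enter. Cytoskeleton, annexin and S100 genes had 26 of 31 members above 0 and a median of 0.36 with 0 past 2-fold; Tubb2a and Anxa2 had 0.96 and 0.84, and Actb, which is bright, had -0.13. Junction genes had a median of 0.15 over 19. Of 31 collagens and matrix genes, Timp1, an inhibitor of matrix proteases, had 7.69 against 6.40, 2.43-fold higher, with Mmp12 and Loxl1 also past 2-fold. The fibrillar collagens Col1a1 and Col1a2 had -0.30 and -0.01, and the median was 0.21. Over 29 genes of the cell cycle the median was 0.17 with 0 past 2-fold, Mcm6 having 0.77, Mki67 0.33 and Tk1 -0.72. Egfr, a growth factor receptor of hepatocytes, had 12.95 against 11.64, 2.47-fold higher with 5 of 6 probe sets higher. On chow Egfr had 14.36 and 14.05, above both high-fat arrays. Cav1, the caveolar coat protein, had 9.36 against 7.87. Egfr and Cav1 were named after their values were seen.

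Regulators of metabolism and timing differed singly. Among 27 insulin and glucose genes, Ppp1r3c, a glycogen-targeting phosphatase subunit, was 2.23-fold lower with 11.67 against 12.83, and 1.82-fold lower on chow, while Irs2 had 0.68 and Insr -0.25. Of 20 clock genes, Arntl (BMAL1) was at least 2.72-fold higher and Ciart 2.68-fold lower; Per1 had -0.08, and the median was -0.15. The labels used here give no time of day for the tissue. Onecut1 (HNF6), a hepatocyte transcription factor, had 9.35 against 7.98, 2.57-fold higher with both probe sets higher. On chow Onecut1 had 11.45 and 10.88, above both high-fat arrays. Zbtb16 had 9.06 against 10.23, 2.26-fold lower with 3 of 3 lower. Hnf4a had -0.02, and the 23 hepatocyte transcription factors had a median of -0.02. Rhbg, an ammonium transporter, and Axin2, a Wnt target, both of the pericentral zone, were 3.26-fold and 2.02-fold higher, yet Glul, the defining pericentral enzyme, had 0.14 and the zonation list a median of -0.01. Of immediate early genes, Myc and Atf3 were 2.32-fold and 2.03-fold higher and Maff 2.07-fold lower. Egr1 and Fos had 0.11 and -0.34. Myc had 8.87 against 7.66 log2, with 10.35 and 9.89 on chow, above both high-fat arrays. Stress response genes of the endoplasmic reticulum had a median of 0.13 over 32, with Vldlr as the only member past 2-fold and Hspa5 and Ddit3 at 0.16 and 0.14. Heat shock proteins and metallothioneins had 0.15 over 19, with Mt1 at 0.03.

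The remaining lists had few members past 2-fold. Smad7, Id1 and Leap2 of the iron list had -1.01, -0.80 and -0.75 log2, Smad7 on 1 of 2 probe sets. The hepcidin genes Hamp and Hamp2 lay on opposite sides of 0, at 0.21 and -0.69. Cyp26b1, which degrades retinoic acid, had 6.44 against 7.62, 2.27-fold lower, and the 17 retinoid genes had a median of -0.16. Urea cycle and amino acid breakdown had -0.08 over 31 with 0 past 2-fold, Ass1 being lowest at -0.61. The median signal of this list was 13.86 log2 on the array labelled WT HFD, and genes with a mean signal from 13 to 14 had a median ratio of -0.05. Cytokine receptor and SOCS genes had 0.16 over 16, with Lepr, the leptin receptor, at -0.59 and 2 of its 3 probe sets lower.

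Antibody transcripts were lower on the array labelled LASS2-/-. Ighm, the heavy chain of immunoglobulin M, had 10.87 against 12.41 log2, 2.91-fold lower with 4 of 5 probe sets lower, and Jchain, the joining chain of plasma cells, had 8.43 against 9.73, 2.47-fold lower. Igkv8-30, a light-chain segment, had 7.84 against 9.45, 3.06-fold lower. On chow Ighm had 10.95 and 10.96, so the array labelled WT HFD stood above the other 3. The B cell surface genes Ms4a1 and Cd79b, both dim, had -0.33 and 0.31. The summed signal of the 6 measured B and plasma cell genes was 2990 against 7065, and most of it on both arrays was Ighm.

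Markers of other cell types were compared in the same way, several of them near the floor. The 7 measured hepatocyte markers were bright, with ratios from -0.29 to 0.04 and Alb at 15.02 against 15.07. The 15 endothelial markers had a median of 0.05, with Cd34 at 1.16 as the only member past 2-fold, Lyve1 at -0.43 and Stab2 at -0.13. The stellate cell median was -0.19 over 10, with Lrat and Reln at -0.59 and -0.36. T and NK cell markers had 7 of 15 measured and a median of 0.00, and neutrophil markers 5 of 10, with S100a8 at 0.82, Csf3r at -0.23 and Ly6g not entered. Of 8 cholangiocyte markers 4 were measured; Krt19, their defining keratin, lay at the floor with 6.13 against 6.21, and the summed signal was 533 against 325. Adipocyte markers had a summed signal ratio of 0.998, and muscle and pancreatic acinar markers 0.806 and 0.791, with Adipoq, Myh4 and Cpa1 not entered. The adipocyte sum was mostly Car3, with 15.76 log2 on the array labelled WT HFD and a ratio of 0.01 on its brightest probe set. Its dimmer probe sets gave -0.16, -1.46 and -1.69. The acinar sum was mostly Cela1, with 10.95 log2 there and a ratio of -0.44. Both sums thus say little about other members, such as Fabp4 at -0.06 and Plin4 at -0.52. The part of the macrophage and antibody markers in the differences of other genes was not tested.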

How the data were processed

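The deposited values are log2 signals of 1 Affymetrix array per group, which the authors made with MAS5 per the submitters' processing notes; its version is not given in the sources used here. Per the labels' protocols, RNA extracted with TRIZOL went through RNeasy clean-up and DNase before labelling by the 3' IVT Express kit. The trimmed mean linear signal (2% per tail) lay between 496.0 and 496.2 on all arrays, so no further scaling was applied. Of 45037 probe sets, 34945 had 1 gene symbol, 932 several and 9160 none here, through the platform's gene numbers and a gene table on GRCm38.p6. Each array was floored at its median over all probe sets. The number of arrays limits the precision, and no p-value, SD between samples or interval is given. The members and the 51 gene lists were chosen with earlier results of these data known. Named by rule were Cers2, the 15 genes per direction furthest apart above the floor on both arrays, 8 bounds per direction, and for each list its 2 defining members and up to 4 furthest apart; clone and predicted names were left out. Other genes were named after their values were seen. Promoter motifs were also searched for the heat shock, stress response and growth hormone lists. Shares of members holding them were 85.7%, 3.45% and 12.5%, against 56.6%, 0.545% and 7.33% of entered genes. A planned check of RNA quality from control probe sets was not run, since the rows used hold none. Alternatives were a floor at the 25th percentile, equal medians, quantile normalization, a lowess curve, the mean of a gene's probe sets, no probe sets of the _x_at or _s_at kind, a filter on the high-fat arrays alone, and 1.5-fold and 3-fold thresholds. The computation was tested on simulated data. Python 3.11.15, numpy 2.4.6, pandas 2.3.3, statsmodels 0.14.6 and matplotlib 3.10.9 were used.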

Additional observations from a re-analysis of the deposited data

Results flagged for a closer look

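For 6 genes the genotype ratio was at least 2-fold in opposite directions on high-fat diet and on chow. These differences between diets were not tested, since each ratio rests on 1 array per group. Cyp26b1, which degrades retinoic acid, had a log2 ratio of -1.18 on high-fat diet and 1.12 on chow, a difference of -2.30, and it was above the floor on all 4 arrays. Tatdn1, a nuclease-domain gene, had 1.49 and -1.29, a difference of 2.78, with 2 of its 4 probe sets sharing the direction. The other 4 involve values under the floor, so their differences are bounds. Arhgef25, a guanine nucleotide exchange factor, had 1.21 and -1.40, a difference of 2.61. Arhgef40 had -1.53 and 1.06, a difference of -2.59, with 1 of 3 probe sets sharing the direction. Sct, the hormone secretin, had -1.09 and 1.10, a difference of -2.19, and Hand1, a transcription factor, had -1.05 and 1.11, a difference of -2.16.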

How the results depend on the processing

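The counts of 184 higher and 61 lower genes became 790 and 786 of 16898 genes with floor and filter at the 25th percentile, so the share of higher genes went from 75.1% to 50.1%. Floor and filter changed together there, and all 184 and 61 genes still passed 2-fold. At 1.5-fold the counts were 716 and 415, and at 3-fold 28 and 5. Quantile normalization gave 160 and 67, the lowess curve 173 and 67, and the mean of probe sets 148 and 45. Of the genes past 2-fold, 127 higher and 42 lower were so under every alternative of scaling, floor, filter and probe set averaging. Among 2278 values of named genes under the alternatives, 46 moved by over 1.5 times. Crossings of 0 were counted only for genes at least 2-fold apart, and there were 2. Hic2 had 0.12 log2 with the filter on the high-fat arrays. Arhgef40 had 0.0019 with no _x_at or _s_at probe sets, which is the difference between the floors and has no direction. Crossings by genes with smaller ratios were not counted. With the mean of probe sets, Elovl7 had 1.32, Socs2 0.94, Il1rn 0.35 and Hic2 -0.45 log2. Of 357 list medians, 12 moved by over 0.1 log2. Reversals were counted only for medians at least 0.1 log2 from 0, and there were 0. Among medians nearer 0, that of the hepatocyte markers went from -0.05 to 0.02 with the lowess curve. That of the T and NK cell markers went from 0.00 to -0.33 with floor and filter at the 25th percentile. The cause of these moves was not tested. No paired analysis was possible because each group has 1 array and no replicate numbers.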
